A study of Mus musculus with 24 samples.

Results

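Of the 24 libraries of the series, 4 were inputs of the m6A pulldown experiment, and the lesion change within these 4 was read as a repeat of the wild-type lesion comparison made by RNA-seq. They were chosen by title: 2 inputs from naive mice and 2 from mice 1 day after a sciatic nerve lesion (SNLD1), each carrying the number 1 or 2. The 6 wild-type RNA-seq libraries, 3 naive and 3 SNLD1, were set beside them gene by gene, and the 2 assays share no library. All 10 libraries came from the L4/5 dorsal root ganglia (DRG) of C57BL/6 mice labelled wild type, with no allele or agent added, and no age is given. The RNA-seq fit took its estimate of spread also from 6 libraries labelled Mettl14-/- and titled Mettl14cKO, 3 naive and 3 SNLD1, which enter no comparison. The input fit took its estimate also from the 6 pulldown libraries titled Wt, 3 naive and 3 SNLD1, which enter no comparison either. An input is the RNA kept aside without antibody when m6A-bearing RNA is pulled down. The treatment text is the same for every library and names both a sham operation and a nerve crush, so whether the naive mice were operated on is not settled. The labels do not say whether inputs and RNA-seq libraries came from the same mice, or whether libraries of a group came from separate mice. The p-values therefore measure the spread between the libraries of each fit, which may be technical.

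The DRG holds the cell bodies of sensory neurons, wrapped by satellite glia, and the sciatic nerve carries their axons to the limb. Cutting or crushing these axons starts a transcriptional programme in the cell body, known from many lesion studies, in which stress-induced transcription factors of the bZIP family such as Atf3 and Jun come on early and growth, adhesion and cytokine genes follow. m6A is a methyl mark on adenosines of mRNA. Inputs are poly(A)-selected RNA without that selection for the mark, so they can be read as a measure of expression.

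The inputs were uneven in depth and in content. Naive input 1 held 9736415 counts, naive input 2 held 12289449, SNLD1 input 1 held 927807 and SNLD1 input 2 held 19653733, against 6630850 to 12639160 in the wild-type RNA-seq libraries. Inputs of the same number and different condition could be more alike than inputs of the same condition: naive input 1 and SNLD1 input 1 had a Spearman correlation of 0.962 across genes, and the same-condition pairs had 0.716 and 0.785. RNA-seq pairs all lay between 0.942 and 0.982. With condition as a term, 588 of 13881 genes (4.24%) differed between input numbers 1 and 2 by edgeR, 330 higher and 258 lower in number 2. Naive input 2 stood 5-fold or more above the other 3 inputs for 123 genes at a level of at least 20 CPM (counts scaled to a common library size), and below them for 11. SNLD1 input 2 stood above the others in this way for 28 genes and below them for 47. No wild-type RNA-seq library stood apart in this way for any gene. With the RNA-seq libraries SNLD1 input 2 had Spearman correlations of 0.671 to 0.791, and naive input 2 had 0.832 to 0.879. Pan-neuronal genes summed to between 34042 and 38077 CPM in the inputs and between 26328 and 31324 CPM in RNA-seq, so neuronal RNA was present in all 10 libraries. Ddx3y, a Y-linked gene, was read in all 4 inputs, at 186, 145, 245 and 43.1 CPM in naive 1 and 2 and SNLD1 1 and 2, and was at 0 in RNA-seq naive 3 and SNLD1 1.

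Atf3 was the gene of smallest p in both assays, and its level before and after the lesion was alike in them. The scaling used trimmed-mean (TMM) factors over the 10 libraries together. Atf3 stood at 7.46 and 14 CPM in naive inputs 1 and 2 and at 428 and 441 CPM in SNLD1 inputs 1 and 2. In RNA-seq it stood at 8.83, 9.75 and 11.5 CPM in naive and 392, 251 and 525 CPM in SNLD1. The groups did not overlap in either assay. The log2 fold change of Atf3 was 5.28 (SE 1.30, n = 2 against 2) in the inputs and 5.27 (SE 0.27, n = 3 against 3) in RNA-seq. In RNA-seq that passed edgeR's quasi-likelihood test at an adjusted p of 2.49e-09, while in the inputs the adjusted p of the same test was 1. DESeq2 on the same input counts called Atf3, and no other gene, at an adjusted p of 0.0168. The change of Atf3 in the inputs minus that in RNA-seq was 0.06 (SE 0.51) on the log2 scale.

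No gene passed the threshold, an adjusted p under 0.05, in the inputs in the fit of the 10 m6A libraries with group as its only term. Of 14705 genes tested by edgeR, 0 were called higher and 0 lower (0% each), and 126 had an unadjusted p under 0.05, 59 of them higher and 67 lower. In RNA-seq 126 of 13291 genes were called higher (0.948%) and 10 lower (0.0752%). SE values of the log2 fold changes had medians of 1.17 in the inputs and 0.238 in RNA-seq. Leaving out a library moved the RNA-seq count of 126 to 60 (naive 1), 63 (naive 3) or 74 (SNLD1 3), and the count of 10 to between 1 and 5 for these and for SNLD1 1 and 2. The genes called in RNA-seq were therefore read in the inputs, whose libraries had no part in choosing them, by counts and medians.

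**Figure D1:**
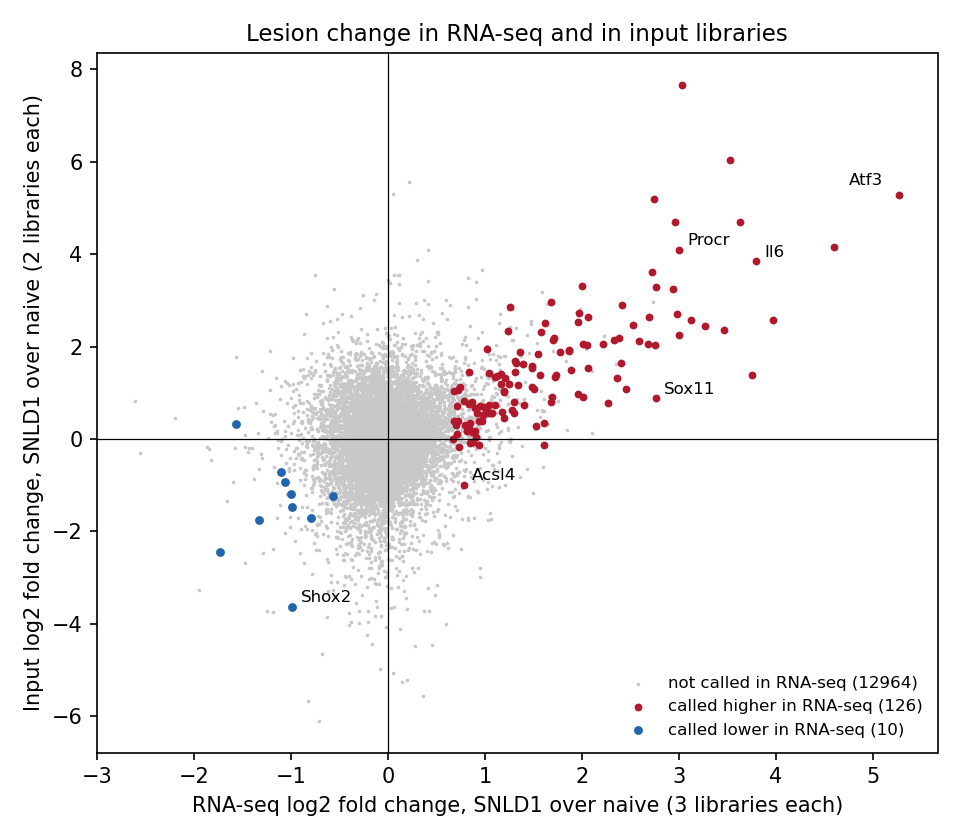
Each point is a gene tested in both assays, with the RNA-seq log2 fold change of SNLD1 over naive on the x axis and the input log2 fold change on the y axis. Of the 126 red points (called higher in RNA-seq) 120 lie above 0 on the y axis, and of the 10 blue points (called lower) 9 lie below it.

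The genes that rose in RNA-seq were, as a group, higher after the lesion in the inputs too. Of the 126, 120 (95.2%) had an input log2 fold change above 0, against 45.3% of all 13100 genes tested in both assays. In 76 of the 126 (60.3%) both SNLD1 inputs stood above both naive inputs, against 8.11% of all genes, and in none did both stand below. Their median log2 fold change was 1.33 in the inputs and 1.48 in RNA-seq, beside -0.07 and -0.02 over all genes tested in both. Without one input at a time the number above 0 lay between 99 (without SNLD1 input 1) and 117.

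The share in the same direction followed the size of the RNA-seq change. Among the 38 genes with an RNA-seq log2 fold change of 2 or more, all 38 were above 0 in the inputs and 31 had non-overlapping inputs. Among the 56 between 1 and 2, 55 were above 0 and 39 did not overlap. Among the 32 under 1, 27 were above 0 and 6 did not overlap, and their median was 0.38 in the inputs beside 0.84 in RNA-seq. Genes that missed the RNA-seq threshold but had an unadjusted p under 0.05 there were above 0 in the inputs for 360 of 501 that were higher (71.9%). Of the 20 genes of smallest p in the inputs, 8 were among the 126.

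Procr, the endothelial protein C receptor, and Il6, the cytokine interleukin-6, followed Atf3 in the size of the input change among the named risers, whose RNA-seq mean had to reach 5 CPM. Procr stood at 3.39 and 0.322 CPM in the naive inputs and at 50.4 and 20.4 CPM in the SNLD1 inputs. Its log2 fold change was 4.10 (SE 1.17) in the inputs and 3.0 (SE 0.34) in RNA-seq, where it rose (edgeR, adjusted p = 3.83e-05). Il6 stood at 0.387 and 1.45 CPM in naive and 21.6 and 7.88 CPM in SNLD1 inputs. The log2 fold change of Il6 was 3.85 (SE 1.33) in the inputs and 3.79 (SE 0.42) in RNA-seq (edgeR, adjusted p = 3.63e-05). Both genes were higher in each SNLD1 input than in each naive input. Below that level, and named after their values were seen, the risers Abra, Ankrd1, A630023A22Rik, Cd207 and Trim15 had larger input changes than Procr, from 4.15 (Trim15) to 7.67 (Abra), without overlap, and Gfap had 4.69 with overlap. Ankrd1 held 1 and 0 counts in naive inputs 1 and 2 and 7 and 41 in SNLD1 inputs 1 and 2. Its input log2 fold change of 6.05 had an SE of 2.50, so its size is poorly fixed.

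The sequences upstream of these 3 genes are shown because they had the largest input changes among the named RNA-seq risers of at least 5 CPM with non-overlapping inputs, and because bZIP factors such as Atf3 and Jun bind short palindromes near promoters. Each is the 250 bases before the RefSeq start in GRCm38.p6, written 5′ to 3′ on the gene's strand. The windows are chr1:191183334-191183583, minus strand, for Atf3, chr2:155750967-155751216, plus strand, for Procr, and chr5:30012864-30013113, plus strand, for Il6. Capitals mark matches to TGANTCA, the AP-1 motif, searched on both strands.
Atf3: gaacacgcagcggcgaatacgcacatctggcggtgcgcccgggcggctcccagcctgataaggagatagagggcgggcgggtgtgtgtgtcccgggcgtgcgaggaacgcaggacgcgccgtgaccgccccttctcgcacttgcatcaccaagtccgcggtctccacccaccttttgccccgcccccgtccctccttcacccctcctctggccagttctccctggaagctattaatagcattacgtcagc
Procr: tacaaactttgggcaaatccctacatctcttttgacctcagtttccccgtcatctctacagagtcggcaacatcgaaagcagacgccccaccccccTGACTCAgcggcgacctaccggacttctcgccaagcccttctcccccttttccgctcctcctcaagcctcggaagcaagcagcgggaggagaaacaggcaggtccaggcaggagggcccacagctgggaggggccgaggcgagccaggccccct
Il6: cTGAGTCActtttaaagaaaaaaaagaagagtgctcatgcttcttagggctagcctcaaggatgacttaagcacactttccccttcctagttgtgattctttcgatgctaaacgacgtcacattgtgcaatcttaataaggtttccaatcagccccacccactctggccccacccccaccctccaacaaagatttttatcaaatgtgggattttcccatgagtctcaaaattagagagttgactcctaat
Procr held 1 match, beginning 154 bases before the start, and Il6 held 1, beginning 249 bases before it. None of the 3 held TGACGTCA, the cAMP response element, or TTCNNNGAA, the STAT motif. Of the 126 risers 96 matched a RefSeq entry by symbol, giving 115 windows, of which 7.83% held TGANTCA, 1.74% TGACGTCA and 13.0% TTCNNNGAA. Windows of all genes tested in RNA-seq held them in 4.62%, 2.59% and 6.01%. These shares are a description of letters in a window.

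The regeneration-associated genes, a list of 38 genes linked to axon regrowth after nerve lesion, had the highest input median among the lists. Of the 36 tested in the inputs 34 were above 0, and in 19 both SNLD1 inputs stood above both naive inputs, against 8.68% of all genes tested, of which 47.1% were above 0. The median log2 fold change of the list was 1.67 in the inputs and 1.19 in RNA-seq. There 20 of 31 tested members rose, beside 0.948% of all genes tested. The list was chosen with earlier results of these data known, so its rank is no independent support. The medians over all genes were -0.05 and -0.02.

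Among its receptors and surface proteins, Plaur, the urokinase receptor, stood at 6.10 and 9.73 CPM in naive and 41.1 and 153 CPM in SNLD1 inputs. Flrt3, a membrane protein with leucine-rich repeats, stood at 63.6 and 65.2 CPM in naive and 561 and 198 CPM in SNLD1 inputs. Both groups of inputs were separate for both genes. Gpr151, an orphan G protein-coupled receptor, stood at 5.33 and 14 CPM in naive and 69.9 and 35.3 CPM in SNLD1 inputs, again without overlap. The input log2 fold changes were 3.61 (SE 1.17) for Plaur, 2.44 (SE 1.09) for Flrt3 and 2.35 (SE 1.09) for Gpr151. In RNA-seq these 3 genes rose by 2.72, 3.27 and 3.47 (edgeR, adjusted p = 0.00097, 1.06e-08 and 2.61e-06).

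Gadd45a, which acts in the response to DNA damage and stress, stood at 7.17 and 18.1 CPM in naive and 43.2 and 109 CPM in SNLD1 inputs. Outside the list, Timp1, an inhibitor of matrix metalloproteinases, stood at 1.94 and 5.07 CPM in naive and 30.8 and 39.9 CPM in SNLD1 inputs. Steap1, a membrane metalloreductase family member, stood at 4.75 and 6.11 CPM in naive and 55.5 and 53.1 CPM in SNLD1 inputs. None of these 3 overlapped, with input log2 fold changes of 2.58 (SE 1.12), 3.29 (SE 1.16) and 3.25 (SE 1.16), and all 3 rose in RNA-seq, by 3.12, 2.76 and 2.94. Msh6, a DNA mismatch repair gene also outside the list, was likewise higher, at 8.43 and 13.6 CPM in naive and 116 and 34.0 CPM in SNLD1 inputs, with a log2 fold change of 2.65 (SE 0.89) beside 2.69 (SE 0.19) in RNA-seq.

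Sox11 and Jun, members of the regeneration-associated list that rose in RNA-seq, overlapped in the inputs. Sox11, a transcription factor of growing neurons, stood at 6.00 and 74.7 CPM in naive and 62.7 and 89.0 CPM in SNLD1 inputs, so the groups overlapped. In RNA-seq Sox11 stood at 39.3, 24.9 and 20.7 CPM in naive and 172, 154 and 249 CPM in SNLD1. The log2 fold change of Sox11 was 0.89 (SE 1.02) in the inputs and 2.76 (SE 0.26) in RNA-seq, a difference of -1.84 (SE 1.03) that was not called (edgeR, adjusted p = 0.977). That difference was 0.92 without naive input 2, and without naive input 1 it was -2.73 and was called.

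Jun stood at 5.13 and 7.19 CPM in naive and SNLD1 input 1 and at 32.7 and 111 CPM in naive and SNLD1 input 2. The level of Jun thus followed the number more than the condition, and its groups overlapped. Its log2 fold change was 1.70 (SE 1.38) in the inputs, -1.53 without SNLD1 input 2, and 1.30 (SE 0.28) in RNA-seq, where it rose. Gap43, a growth-cone protein, stood at 409 and 563 CPM in naive and 458 and 651 CPM in SNLD1 inputs. The groups of Gap43 overlapped in both assays and it was not called in RNA-seq either. Bdnf, a neurotrophin, did not overlap in the inputs, at 65.8 and 152 CPM in naive against 246 and 154 CPM in SNLD1. Sprr1a, a small proline-rich protein, stood at 0 and 2.33 CPM in naive and 1.03 and 9.94 CPM in SNLD1 inputs and was too low to be tested in RNA-seq.

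**Figure D2:**
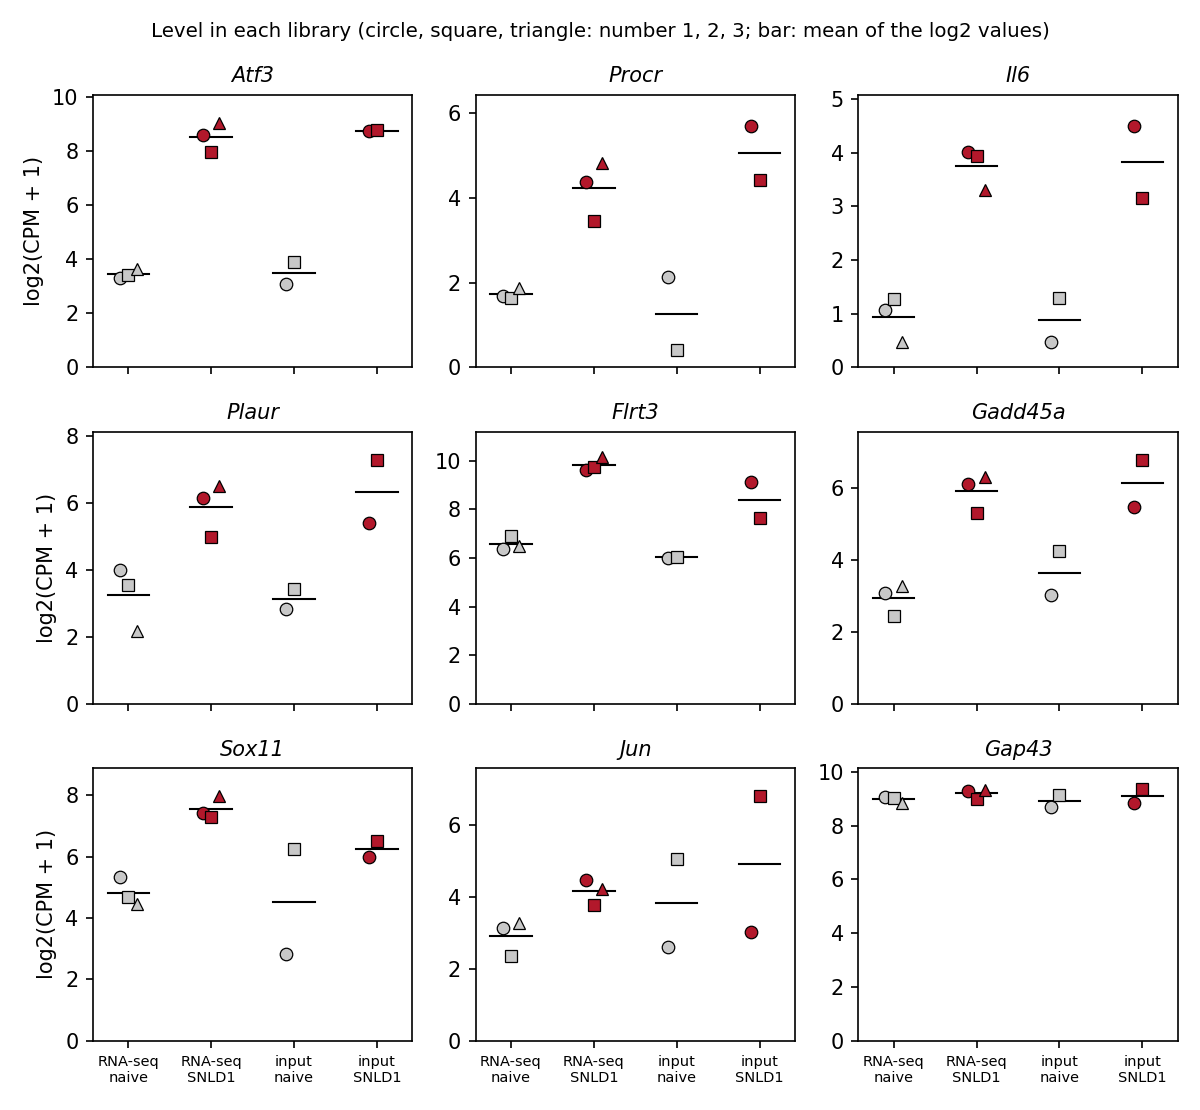
Level of 9 genes in each library as log2(CPM + 1), with RNA-seq naive, RNA-seq SNLD1, naive inputs and SNLD1 inputs from left to right, 1 point per library, its number given by the marker shape and the bar at the mean. Atf3 reaches the same height in both assays, while Sox11 and Jun differ between naive inputs 1 and 2.

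The neuropeptides, of which 13 were tested, held 10 members above 0 in the inputs and 3 with non-overlapping higher inputs (8.68% of all genes had them). In RNA-seq 1 of 13 was called higher, beside 0.948% of all genes tested. Gal, the peptide galanin, stood at 86.6 and 165 CPM in naive and 272 and 509 CPM in SNLD1 inputs, without overlap. The log2 fold change of Gal was 1.61 (SE 1.15) in the inputs and 0.82 (SE 0.28) in RNA-seq, where its groups overlapped and it was not called (edgeR, adjusted p = 0.299). Npy, neuropeptide Y, overlapped in the inputs, at 0.484 and 18.1 CPM in naive and 13.4 and 49.98 CPM in SNLD1. Pam, the enzyme that amidates peptides, stood at 154 CPM in naive input 2 and at 8.23, 8.22 and 25.9 CPM in naive input 1 and SNLD1 inputs 1 and 2.

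Of the 18 immediate-early genes tested all 18 were above 0 in the inputs, and 7 had non-overlapping higher inputs, beside 47.1% and 8.68% of all genes, with a median of 0.66 beside 0.54 in RNA-seq. RNA-seq had 10 of 15 above 0 and 3 called higher, beside 47.1% and 0.948% of all genes tested there. The signs were not uniform within numbers. Jund, Nr4a1, Arc, Egr1 and Nr4a2 were below 0 and Junb at 0 within number 1, and Egr3 was below 0 within number 2. These genes were named after their values were seen. The list median was 0.43 within number 1 and 0.84 within number 2, and 0.22 to 1.12 with an input left out of the fit. Fosl2, a Fos-family subunit of AP-1, stood at 4.75 and 4.83 CPM in naive and 11.3 and 18.7 CPM in SNLD1 inputs, and rose in RNA-seq by 1.39 (SE 0.30, edgeR, adjusted p = 0.0288). Summed over the list the level was 131 and 145 CPM in naive and 595 and 730 CPM in SNLD1 inputs, of which Atf3 made up 428 and 441 CPM after the lesion.

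The IL-6 and gp130 pathway, in which interleukin-6 family ligands act through a shared receptor subunit, Janus kinases and Stat3, showed less. Of its 14 tested members 10 were above 0 in the inputs and 2 did not overlap, beside 8.68% of all genes, the ligand Il6 and Il6st, the gene of gp130. The feedback inhibitor Socs3 stood at 0.484 and 4.18 CPM in naive and 0 and 19.6 CPM in SNLD1 inputs, so that it was highest and lowest in SNLD1 libraries, and its log2 fold change was 2.19 (SE 1.47), or -7.14 without SNLD1 input 2. At the depth of SNLD1 input 1 a level near 1 CPM is 1 count. In RNA-seq 3 of 12 tested members of the pathway rose, beside 0.948% of all genes tested. Among them was Socs3, by 2.38 (SE 0.44, edgeR, adjusted p = 0.00944).

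Interferon-stimulated genes were above 0 in the inputs for 17 of 21, beside 47.1% of all genes. Their median was 0.57 there and 0.85 in RNA-seq, where 5 of 20 rose, beside 0.948% of all genes tested. In 5 members both SNLD1 inputs stood above both naive inputs, beside 8.68% of all genes. These were Isg15, Bst2, Usp18, Oas1a and Ifit3, the last 3 named after their values were seen, and none of them was called in RNA-seq. The 5 that rose in RNA-seq, Iigp1, Ifit1, Stat2, Gbp2 and Mx2, all overlapped in the inputs and were likewise named afterwards. Isg15, a ubiquitin-like protein, stood at 0.484 and 0.885 CPM in naive and 1.03 and 7.45 CPM in SNLD1 inputs. Bst2, which tethers budding viruses, stood at 8.62 and 1.93 CPM in naive and 13.4 and 30.0 CPM in SNLD1 inputs. Isg15 was too low to be tested in RNA-seq.

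The 10 genes that fell in RNA-seq pointed the same way in the inputs with 1 exception. For 9 of the 10 the input log2 fold change was below 0, against 54.7% of all genes, and in 7 both SNLD1 inputs stood below both naive inputs, against 10.6%. Their median was -1.36 in the inputs and -1.03 in RNA-seq. Without naive input 2 the input median was -0.55. The RNA-seq count of 10 was 1 with the 6 wild-type libraries fitted alone, and 0 with wild-type libraries 1 and 2 of each condition alone.

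Pcdh18, a protocadherin, stood at 7.94 and 7.4 CPM in naive and 2.06 and 2.48 CPM in SNLD1 inputs. Its log2 fold change was -1.76 (SE 1.18) in the inputs and -1.33 (SE 0.27) in RNA-seq. Fgf9, a fibroblast growth factor, stood at 44.6 and 84.6 CPM in naive and 23.6 and 18.1 CPM in SNLD1 inputs, with a log2 fold change of -1.70 (SE 0.80) beside -0.79 (SE 0.17). Smad9, which transduces bone morphogenetic protein signals, stood at 9.39 and 20.8 CPM in naive and 4.11 and 8.81 CPM in SNLD1 inputs, with -1.18 (SE 1.44) beside -1.0 (SE 0.23). These 3 did not overlap in either assay.

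Others of the 10 leaned on naive input 2. Shox2, a homeobox transcription factor, stood at 242 CPM in naive input 2 and at 12, 11.3 and 9.80 CPM in naive input 1 and SNLD1 inputs 1 and 2. 1190002N15Rik stood at 43.4 CPM there and at 14.2, 11.3 and 10.1 CPM in the same 3. Nim1k, a protein kinase, stood at 21.4 CPM there and at 9.88, 8.22 and 8.67 CPM. Fam13a and Lrrn1 overlapped, with input log2 fold changes of -0.71 (SE 1.07) and -1.23 (SE 0.98). Ntf3, the neurotrophin NT-3, named after its values were seen, had non-overlapping lower inputs and log2 fold changes of -2.46 in the inputs and -1.73 in RNA-seq. The exception was 8430408G22Rik, at 7.46 and 2.17 CPM in naive and 8.22 and 5.11 CPM in SNLD1 inputs.

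The input genes of smallest p that were lower after the lesion rested on the same library. Tmem263 stood at 532 CPM in naive input 2 and at 29.4, 23.6 and 18.8 CPM in naive input 1 and SNLD1 inputs 1 and 2. Nmt2, an N-myristoyltransferase, stood at 851 CPM there and at 56.0, 42.1 and 47.1 CPM in the other 3. B3galt1, a galactosyltransferase, stood at 417, 29.2, 20.6 and 22.2 CPM in that order of libraries. Twf1, an actin-binding protein, stood at 651, 47.8, 51.4 and 29.0 CPM. In RNA-seq none of these 4 was called, although Tmem263 and B3galt1 were separate and lower there too, B3galt1 at 53.5, 56.0 and 47.9 CPM in naive and 31.2, 39.5 and 36.3 CPM in SNLD1, and the range of Nmt2 over its 6 libraries was 88.1 to 138 CPM. The input log2 fold changes, from -3.77 (Tmem263, SE 1.25) to -3.19 (Twf1, SE 1.10), rest on naive input 2 standing far above the other 3 inputs.

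The exceptions among the 126 risers were 6 genes below 0 in the inputs, all with overlapping inputs. Acsl4, an acyl-CoA synthetase for long-chain fatty acids, stood at 141 and 434 CPM in naive and 249 and 63.7 CPM in SNLD1 inputs, so it was higher in SNLD1 input 1 than in naive input 1 and lower in number 2. Its log2 fold change was -0.99 (SE 1.06) in the inputs and 0.78 (SE 0.15) in RNA-seq. Olfr920, a gene of the olfactory receptor family, stood at 3.29 and 15.9 CPM in naive and 8.22 and 9.71 CPM in SNLD1 inputs. Ggta1 and Caprin2 were at -0.17 (SE 0.98) and -0.12 (SE 0.89), and Ell2 and Nt5e, named after their values were seen, at -0.09 and -0.06. Zfp729b, a zinc finger gene that rose in RNA-seq by 3.0, overlapped too: it stood at 186 CPM in SNLD1 input 1 and at 23.7, 14.6 and 19.1 CPM in naive inputs 1 and 2 and SNLD1 input 2.

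The 2 numbers differed in how closely they followed RNA-seq. Atf3 was 57.3-fold higher in SNLD1 than in naive input 1 and 31.5-fold higher in SNLD1 than in naive input 2, and Flrt3 8.82-fold and 3.03-fold. The ratio of SNLD1 to naive input, as log2 of CPM + 1, was above 0 for 122 of the 126 risers within number 1 and for 106 within number 2, with medians of 1.34 and 1.22. Across numbers, SNLD1 input 1 stood above naive input 2 for 110 and SNLD1 input 2 above naive input 1 for 95. Over the 9257 genes whose means reached 5 CPM in both assays, the Spearman correlation with the RNA-seq change was 0.420 for number 1 and 0.01 for number 2. These are correlations across genes, which are not independent replicates, and each set of ratios shares its libraries. The 2 input ratios correlated with each other at -0.10. Of the 13100 genes, 6800 had a fitted change of the same sign in both assays. Levels, as distinct from changes, correlated between the assays at 0.954 in naive and 0.923 in SNLD1 over 13100 genes.

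**Figure D3:**
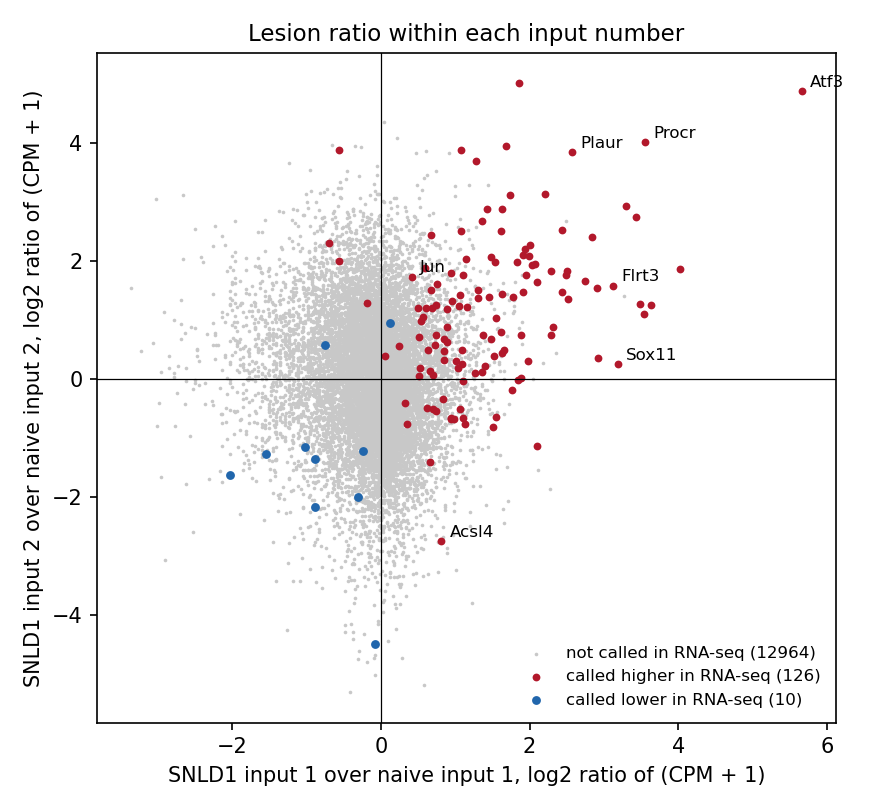
Each point is a gene tested in both assays, with the log2 ratio of SNLD1 input 1 to naive input 1 on the x axis and of SNLD1 input 2 to naive input 2 on the y axis, on CPM + 1. The risers of RNA-seq (red) lie to the right of 0 for 122 of 126 and above 0 for 106, and the grey cloud is taller than it is wide.

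No gene was called for a different change in the inputs and in RNA-seq. A single fit over the 10 libraries tested 14403 genes, called 0 in either direction (0%), and had 518 with an unadjusted p under 0.05. Leaving out naive input 1 gave 136 genes higher and 209 lower in the inputs, and leaving out SNLD1 input 1 gave 59 and 254, so that calls appeared where 1 condition of the inputs was represented by number 2 alone. That lone library is assumed to vary like the other groups. Without either other input, or any RNA-seq library, there were none.

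The genes of smallest p in that difference were, on the higher side, mostly highest in SNLD1 input 2. Hip1r, which links clathrin coats to actin, stood at 3.29, 2.09 and 5.14 CPM in naive 1 and 2 and SNLD1 1, and at 25.04 CPM in SNLD1 input 2. Acaa1a, a peroxisomal thiolase, stood at 4.26, 3.14, 6.17 and 27.1 CPM in the same order. Comp, a cartilage matrix protein, stood at 2.52, 2.25, 2.06 and 13.3 CPM, and Gcn1l1 at 2.91, 1.05, 5.14 and 13.1 CPM. Their differences lay between 2.62 (Gcn1l1, SE 0.83) and 3.27 (Hip1r, SE 0.85). Without SNLD1 input 1, those of Hip1r, Acaa1a and Comp were called.

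On the lower side both SNLD1 inputs took part. P4ha3, a collagen prolyl hydroxylase subunit, stood at 9.20 and 7.56 CPM in naive and 2.06 and 1.69 CPM in SNLD1 inputs, while in RNA-seq it stood at 6.12, 5.23 and 5.59 CPM in naive and 9.03, 5.65 and 11.2 CPM in SNLD1. Its difference was -2.84 (SE 0.63, edgeR, adjusted p = 0.977). Slitrk2, a synaptic adhesion protein, differed by -2.62 (SE 0.70), Zfc3h1 by -1.90 (SE 0.52) and Senp1, a SUMO protease, by -2.34 (SE 0.66), each with non-overlapping lower inputs. The difference of P4ha3 was called without SNLD1 input 1 (-2.92, edgeR, adjusted p = 0.0497), and those of Slitrk2 (-3.20) and Zfc3h1 (-2.21) without naive input 1. Over all 13100 genes, 232 were separate and higher in both assays, 141 separate and lower in both, and 44 separate in opposite directions. Whatever their RNA-seq result, 8.11% of the 13100 were separate and higher in the inputs and 10.6% separate and lower.

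The neuronal lists did not move together. Of 21 pan-neuronal genes 9 were above 0 in the inputs, with a median of -0.21, and none was called in RNA-seq. Pou4f1, a sensory neuron transcription factor, stood at 1740 CPM in naive input 2 and at 113, 64.7 and 149 CPM in naive input 1 and SNLD1 inputs 1 and 2. Map1b, a microtubule-associated protein, stood at 8805 CPM there and at 1919, 1601 and 1429 CPM in the same 3. Nefh, the heavy neurofilament subunit, followed the number, at 382 and 313 CPM in number 1 and 2045 and 1220 CPM in number 2.

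Sensory channels and receptors were above 0 in 16 of 35, with a median of -0.18, 1 separate and higher and 6 separate and lower (10.5% of all genes were). Kcna4, a voltage-gated potassium channel, stood at 14.3 and 26.0 CPM in naive and 5.14 and 6.56 CPM in SNLD1 inputs, and was separate and lower in RNA-seq too, where it was not called. Mrgpra3, a receptor of itch neurons, stood at 38.4 and 95.9 CPM in naive and 29.8 and 16.5 CPM in SNLD1 inputs.

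Of the m6A machinery, the writers, erasers and readers of the mark, 3 of 18 were above 0 in the inputs, with a median of -0.53 against 0.04 in RNA-seq, and none was called in either assay. Ythdf2, an m6A reader, stood at 511 CPM in naive input 2 and at 57.4, 66.8 and 84.4 CPM in the other 3 inputs, and Wtap, a subunit of the writer complex, at 61.5 CPM beside 8.23, 5.14 and 14.8 CPM. The catalytic writer Mettl3 stood at 52.1 and 28.6 CPM in naive and 38.0 and 28.9 CPM in SNLD1 inputs, and its partner Mettl14 at 23.9, 15.0, 22.6 and 16.1 CPM, both with overlap. The median of the list within number 1 was 0.12 and within number 2 it was -1.04.

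Stress and lipid genes were mixed. ATF4 targets were above 0 in 12 of 19, with 4 separate and higher, beside 47.1% and 8.68% of all genes, and 0 of 17 were called in RNA-seq. Chac1, a glutathione-degrading enzyme, stood at 1.26 and 0.965 CPM in naive and 4.11 and 10.3 CPM in SNLD1 inputs, and Trib3, a pseudokinase, at 1.45 and 1.61 against 2.06 and 5.95 CPM. Cholesterol synthesis genes were above 0 in 13 of 20. Insig1, a sterol-responsive membrane protein of the endoplasmic reticulum, stood at 426 CPM in naive input 2 and at 25.2, 34.9 and 92.6 CPM in the other 3. Ribosomal protein genes were above 0 in 59 of 77, with a median of 0.19. Of them 22 were separate and higher, against 8.68% of all genes, and 2 separate and lower. The median was 0.01 within number 1 and 0.39 within number 2. In RNA-seq 61 of 76 were above 0, with a median of 0.08, and none was called. Rpl18 and Rps10 were highest in SNLD1 input 2, at 188 and 50.3 CPM.

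**Figure D4:**
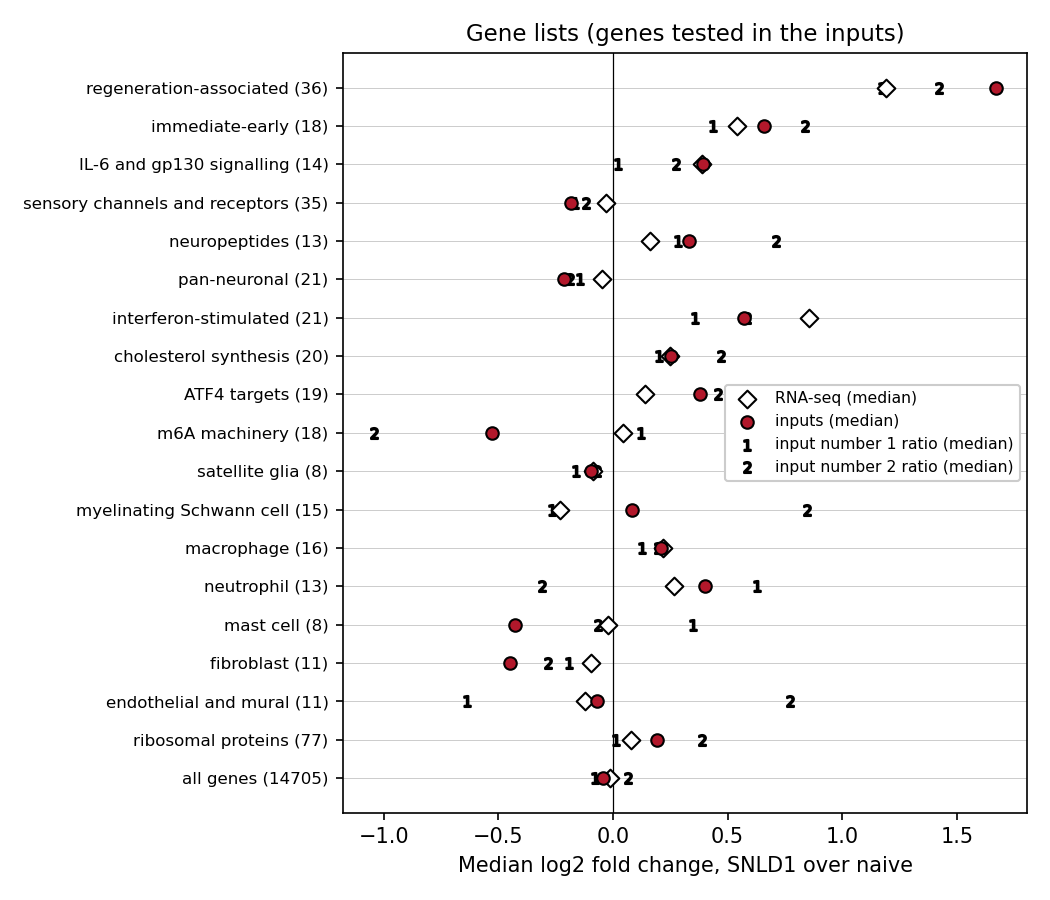
Median log2 fold change of SNLD1 over naive for each gene list with 8 or more genes tested in the inputs, in RNA-seq (open diamonds), in the inputs (red circles) and as the ratio within input numbers 1 and 2 (digits), with the number of genes tested in the inputs in brackets. Of the lists shown the regeneration-associated list has the highest median in both assays, and the numbers 1 and 2 lie far apart for the m6A machinery, Schwann, neutrophil and endothelial lists.

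The sums of several lists of markers of other cells followed the input number, and other sums did not. The neutrophil list summed to 2385 CPM in naive input 1 and 3729 CPM in SNLD1 input 1, against 146 and 90.2 CPM in naive and SNLD1 input 2, and to between 287 and 2024 CPM in RNA-seq. All 13 neutrophil genes were tested, and none was separate between conditions. Alas2, an enzyme of red cell precursors, likewise stood at 57.9 and 75.0 CPM in number 1 and 1.85 and 2.72 CPM in number 2, while the other 4 erythrocyte genes, all globins, were at 0 in the 4 inputs. In RNA-seq the erythrocyte list summed to between 8.26 and 25.9 CPM. Alas2 made up 7.87 to 25.4 CPM of it, so the globins were near 0 there too. Whether these low values come from the samples or from the counting was not tested. Macrophage markers summed to 478 and 624 CPM in number 1 and to 178 and 262 CPM in number 2, Schwann cell markers to 7404 and 7012 CPM and to 3620 and 3992 CPM, and endothelial and mural markers to 274 and 301 CPM and to 99.1 and 96.3 CPM. In RNA-seq the macrophage sum ran from 210 to 444 CPM and the Schwann cell sum from 4281 to 7657 CPM. The endothelial and mural sum ran from 177 to 345 CPM there. The satellite glia sum went the other way, at 2940 and 2587 CPM in number 1 and 4132 and 3678 CPM in number 2. Much of it was S100b, at 1353 and 1229 CPM in number 1 and 2315 and 2138 CPM in number 2. Slc1a3, Gja1 and Fabp7 were on average lower in number 2, and the other satellite glia members were higher there. Fibroblast markers did not follow the number, at 3771 and 3777 CPM in number 1 and 3914 and 2979 CPM in number 2. In these bulk samples fewer cells of a type and less RNA per cell cannot be told apart. The part of these cells in the lesion change was not tested.

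**Figure D5:**
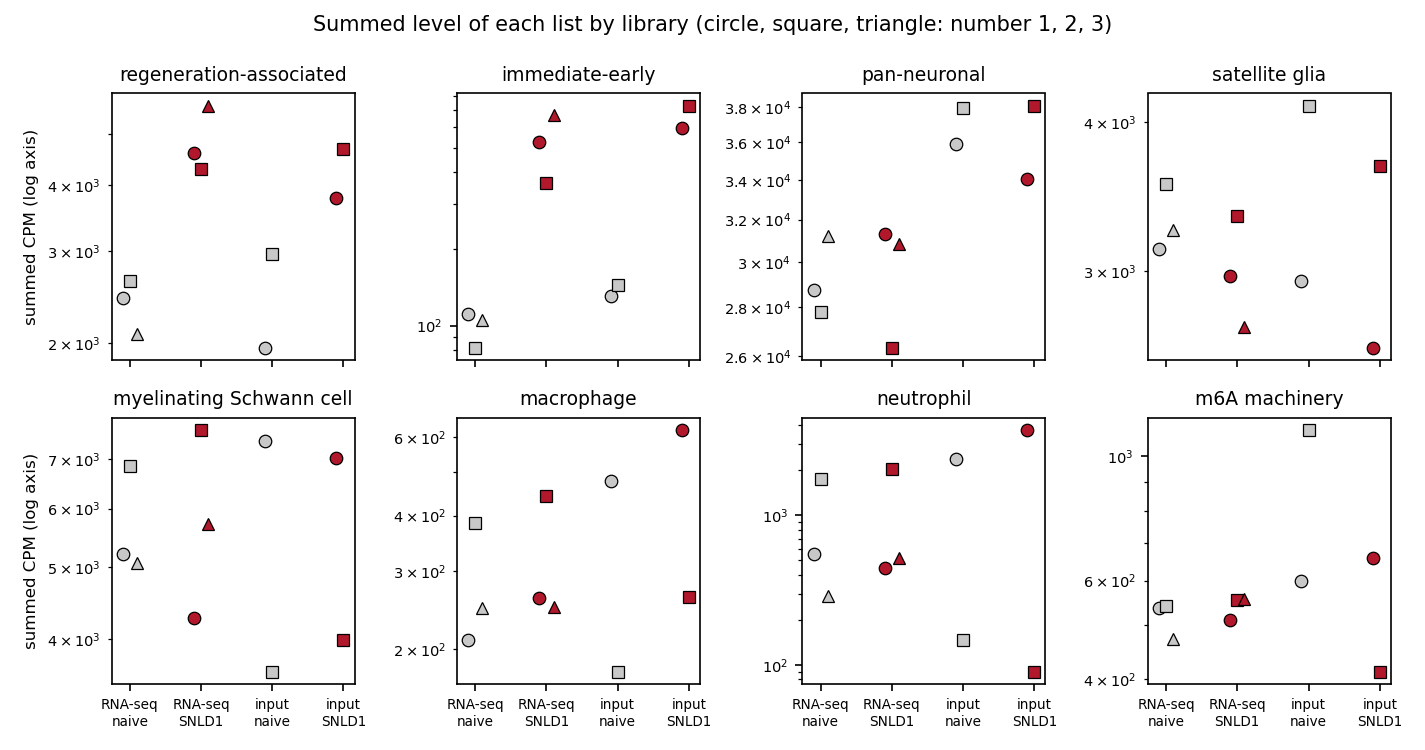
Summed CPM of 8 gene lists in each library on a log axis, with the groups in the order RNA-seq naive, RNA-seq SNLD1, naive inputs and SNLD1 inputs and the library number given by the marker shape. Regeneration-associated and immediate-early sums separate naive from SNLD1 in both assays, and the neutrophil sum separates input number 1 from number 2.

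Of the remaining marker lists, satellite glia had 3 of 8 genes above 0, fibroblasts 1 of 11, mast cells 2 of 8 and skeletal muscle 2 of 5. The oligodendrocyte and erythrocyte lists had 1 tested gene each and the adipocyte list 2, so no lesion change was read from them.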

How the data were processed

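Counts per gene symbol, unnormalised, were deposited by the authors for 12 RNA-seq and 10 m6A libraries. Per the labels, RNA was Trizol-extracted, poly(A)-selected and made into Smart-seq2 libraries, and mm10, STAR, Trimmomatic and DESeq2 are named in the submitters' processing notes, with no versions. Which counter was used, and whether by strand, is not given in the sources used here, so reads of overlapping antisense genes cannot be told apart. Of 24421 RNA-seq symbols, 24411 were shared.

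Tests used R 4.3.3 and edgeR 4.0.16: filterByExpr with groups, TMM, glmQLFit and glmQLFTest, Benjamini-Hochberg over all genes tested, calls at an adjusted p under 0.05. The input contrast was fitted on all 10 m6A libraries as 4 groups, RNA-seq on 12 libraries as 4 groups (6 of them Mettl14-/-), and the difference on 6 RNA-seq and 4 input libraries. The pulldown libraries shared the spread of the input fit, and the 4 inputs alone are an alternative. Pulldowns numbered 3 correlated with the inputs at 0.848 to 0.937 (Spearman) and the other pulldowns at 0.615 to 0.754. SE is the log2 fold change divided by the square root of F. Non-overlap means every SNLD1 library above, or below, every naive one. A CPM value is computed from counts, and 1 CPM was added before library ratios.

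The members and lists were chosen with earlier results of these data known. Genes were named as follows: input or difference calls of at least 5 CPM, or the 5 of smallest p per direction at that level; the 10 largest RNA-seq calls per direction of at least 5 CPM there without overlap; the 2 members of smallest input p in each list, whose values are given for the lists of functions and not for each cell marker list (1 such member is not reported here); 14 genes always; and the 5 largest opposite changes. Alternatives used DESeq2 1.42.0 and limma 3.58.1 (voom with quality weights). All tests were run on simulated data with 200 changed genes. The simulated spread was set below that of the inputs, and no number effect was added. The input fit, with the pulldowns, had a coefficient of variation of 0.789, and the 4 inputs alone had 0.640. In the simulation DESeq2 made more false calls than its threshold allows and exceeded the limit set for the other tests, which they met. Its single call in the inputs therefore carries less weight. Meeting the limit at that lower spread does not show how the other tests behave on these inputs. Figures used Python 3.11 and matplotlib 3.10.9. The miCLIP lists were not used here.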

Additional observations from a re-analysis of the deposited data

Results flagged for a closer look

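For 2 named genes every SNLD1 library lay on one side of every naive library in RNA-seq and on the other side in the inputs, and these opposite directions were not tested as such beyond the fit of the difference, which called neither with all 10 libraries. Jrk, a gene named for the jerky mouse, stood at 5.62 and 3.38 CPM in naive and 10.3 and 9.19 CPM in SNLD1 inputs, and in RNA-seq at 3.31, 2.26 and 3.78 CPM in naive and 1.74, 1.30 and 1.78 CPM in SNLD1. Its difference, input minus RNA-seq, was 2.06 on the log2 scale (SE 0.66, edgeR, adjusted p = 0.977). Brd8, a bromodomain protein, stood at 95.2 and 163 CPM in naive and 55.5 and 35.2 CPM in SNLD1 inputs, and in RNA-seq at 108, 116 and 103 CPM in naive and 136, 128 and 123 CPM in SNLD1. The difference of Brd8 was -1.78 (SE 0.44, edgeR, adjusted p = 0.977), and it was called at -2.16 without naive input 1 (edgeR, adjusted p = 0.0218) and at -2.13 without SNLD1 input 1 (0.0476), where 1 library stood for a condition. Over all 13100 genes tested in both assays, 19 were separate and higher in RNA-seq and lower in the inputs, and 25 the reverse. In the inputs 10.6% of these genes were separate and lower and 8.11% separate and higher.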

How the results depend on the processing

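The input comparison called 0 genes higher and 0 lower under RLE scaling, library totals, voom, no filter, a mean of at least 5 CPM, the 4 inputs alone and each left-out input (0 to 0). DESeq2 called 1 higher. The 4 inputs alone with a replicate block, added after seeing the data, called 6 higher (Atf3, Procr, Plaur, Steap1, Timp1 and Tnfrsf12a) and 1 lower (Spry2); a replicate block in the 10-library fit called 0 and 0 and left 117 of the 126 risers above 0. The numbers are not shown to pair the samples: deviations by number correlated at 0.488 in the inputs and at 0.02, 0.712 and 0.148 in RNA-seq. The RNA-seq calls higher were 232 with no filter, 40 with wild-type libraries 1 and 2 alone (added after seeing the data) and 60 to 130 with a library left out; those lower were 19 by DESeq2, 24 with no filter, 1 with the 6 wild-type libraries alone, 0 with libraries 1 and 2 alone and 1 to 14 with a library left out. The difference called 0 to 136 genes higher and 0 to 254 lower with a library left out.

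In the inputs the risers' median was 1.44 under RLE scaling and library totals, 1.43 by DESeq2, 1.25 at 5 CPM or more, 1.88 for the 63 genes at an RNA-seq adjusted p under 0.01 (62 above 0), and 1.20 to 1.46 with an input left out (99 to 117 above 0). The fallers' median was -1.75 to -0.55 with an input left out (8 to 10 below 0). RLE scaling, library totals and DESeq2 moved the median of all genes by 0.11, 0.11 and 0.14.

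Signs changed for these input values. Caprin2 was 0.00277 under RLE scaling, Ggta1 0.00703 under it and 0.00881 by DESeq2, Mettl14 0.0308 under RLE scaling, 0.0138 under library totals and 0.0281 by DESeq2, and Olfr920 0.27 by voom and 0.14 with the inputs alone and the block. With an input left out the ranges were -0.33 to 1.54 (8430408G22Rik), -0.27 to 0.0282 (Caprin2), -0.38 to 2.50 (Comp), -1.57 to 1.57 (Fam13a), -0.25 to 0.45 (Gap43), -1.46 to 0.52 (Ggta1), -2.82 to 1.27 (Insig1), -1.53 to 3.51 (Jun), -0.44 to 0.32 (Mettl14), -0.77 to 0.19 (Mettl3), -2.09 to 0.94 (Nefh), -0.83 to 1.34 (Olfr920), -3.43 to 1.01 (Pam), -7.14 to 4.36 (Socs3), -0.32 to 8.66 (Sprr1a), -2.90 to 0.26 (Wtap) and -2.77 to 0.29 (Ythdf2); the difference of Sox11 ranged from -2.73 to 0.92. The cause of these changes was not tested. Over 65 named genes and 13 alternatives, 803 of 838 input values kept their sign and side of the threshold. The depth of SNLD1 input 1, 927807 counts, limits low genes.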
